A study of Mus musculus with 6 samples.

Results

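The Hox cluster genes are described here in ovaries of mouse embryos at stage E15.5, on 3 arrays of Dmrt1 knockout ovaries and 3 arrays of wild-type (WT) ovaries. A gene belonged to the set when a probe set carried its symbol alone, from Hoxa, Hoxb, Hoxc or Hoxd followed by a paralog number, and it was read through its brightest probe set over the 6 arrays. This gave 33 genes, read from 48 probe sets, of 18193 genes with such a probe set. The RefSeq table lists 39 mouse Hox genes. Hoxb8 and Hoxd4 were named only on probe sets that carry several symbols, and the remaining genes were not analysed here. The series describes the removal of Dmrt1 as conditional. The Cre line, the cells it acts in, the strain and the number of animals behind an array are not given in the sources used here. The samples are numbered as replicates, and nothing says that they came from separate animals, so p-values reflect only how these samples vary, and that variation may be technical.

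Hox genes encode homeodomain transcription factors that lie in 4 clusters and specify position along the body axis. Within a cluster, genes of low paralog number are active towards the head and genes of high paralog number towards the tail, so that tissues at one level of the body carry a characteristic set of Hox transcripts. Retinoic acid and Cdx factors switch them on, Trithorax and Polycomb proteins maintain their active and silent states, and Pbx and Meis proteins bind DNA with them. In the female reproductive tract the posterior Hoxa genes pattern the duct that forms oviduct, uterus and cervix.

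Values are intensities that the authors computed per probe set with GCRMA, a method that adjusts background by the base composition of probes, and differences are knockout minus wild-type on the log2 scale. Testing required log2 4 (an intensity of 16) in 3 or more of the 6 samples. Of the 33 genes, 21 were tested and 12 were not. P-values come from limma, carry the Benjamini-Hochberg adjustment across the 22040 probe sets that entered the fit, and count as passing under 0.05. Median intensities were 13.2 to 13.4 across knockout arrays and 14.4 to 14.7 across wild-type arrays. Xist, the RNA that silences an X chromosome in female cells, averaged log2 1.81 over its probe sets on knockout replicate 1, against 9.75 and 9.84 on the other knockout arrays and 10.7 to 10.9 in wild-type. Medians over Y-linked genes were log2 1.29 to 1.49 on all 6 arrays. Values without knockout replicate 1 are therefore given beside the larger differences below. Dmrt1 itself lay at log2 2.58 to 3.10 across knockout arrays and 3.08 to 3.70 across wild-type arrays, under the filter level on every array, and does not check the labels. The germ cell helicase Ddx4, at 1305 to 2091 intensity units across knockout arrays and 1161 to 1291 across wild-type arrays, and the granulosa cell factor Foxl2, at 129 to 301 across knockout arrays and 227 to 255 across wild-type arrays, were above the filter level on all 6 arrays.

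Among the 21 tested Hox genes 0 rose, 1 fell and 20 did not pass, while 6 had an unadjusted p under 0.05. The gene that fell, Hoxa2, entered the test through its wild-type arrays alone, so the filter had already selected it in that direction and its count is a description. Over all 11897 tested genes 1.28% rose and 2.27% fell, 3.55% in either direction, so the count of calls among Hox genes is near the background. The signs of the differences changed along the clusters. Of 12 tested genes of paralog groups 1 to 8, 11 had a negative difference, with a median of -0.32, and all 5 of paralog groups 10 and 11 had a positive difference, with a median of 0.57. Over all tested genes 53.4% were positive and the median was 0.019. The line between groups 8 and 10 was drawn after the values were seen, and of the wider posterior class, groups 9 to 13, 7 of 9 tested genes were positive. Without knockout replicate 1 the same counts were 11 of 12 and 5 of 5, with medians of -0.21 and 0.30. Without knockout replicate 3 they were 9 of 12 and 5 of 5, with medians of -0.096 and 0.72, and without wild-type replicate 2 the median of groups 10 and 11 was 0.29. Hoxa2 is among the 12 and the 21, and the filter had fixed its negative sign. With no filter 14 of 19 genes of groups 1 to 8 were negative, with a median of -0.21. In that setting 10 of 14 genes of the wider posterior class were positive. Spearman's rho between paralog number and difference was 0.71 and Pearson's r 0.70 over the 21 genes, as a description, since the genes share the same 6 arrays. In whole ovaries, fewer cells of a type and less RNA per cell cannot be told apart.

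**Figure D1:**
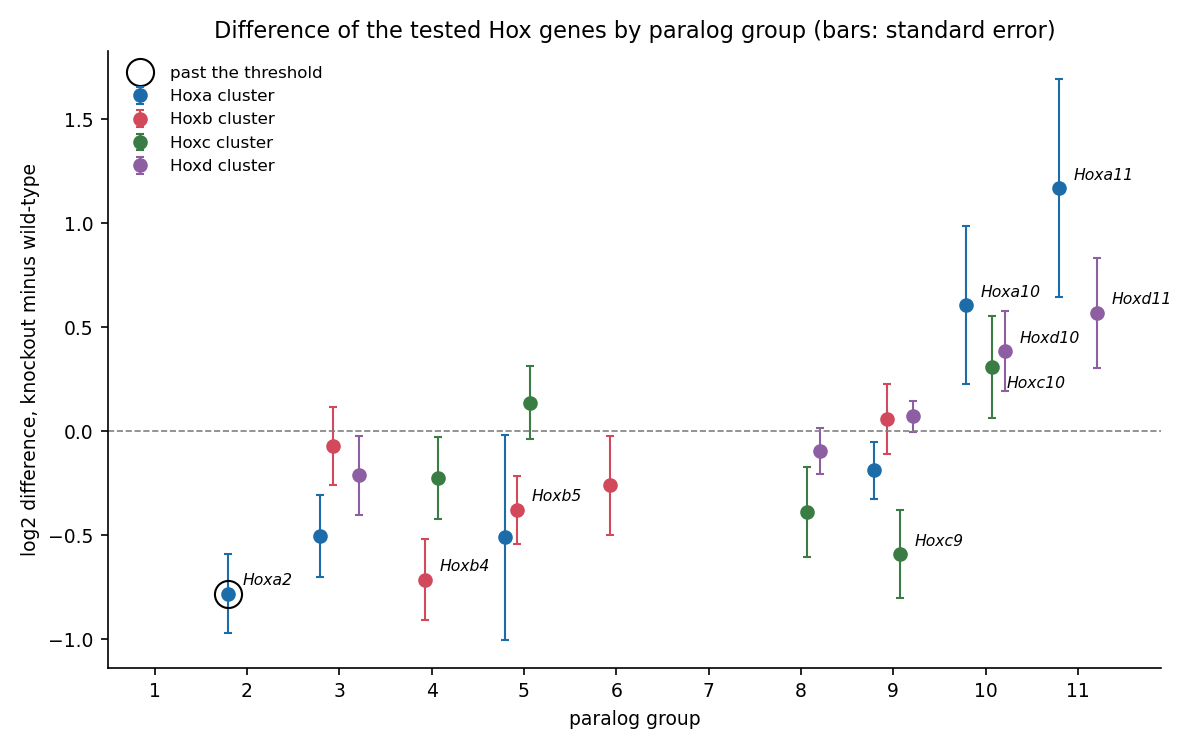
Log2 difference, knockout minus wild-type, of the 21 tested Hox genes (vertical axis) against their paralog group (horizontal axis), coloured by cluster, with bars for limma's standard error. Of 12 genes in groups 1 to 8, 11 lie below 0, all 5 of groups 10 and 11 lie above it, and the ring marks Hoxa2, the gene past the threshold. The filter had fixed the sign of Hoxa2.

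Hoxa2, which patterns the hindbrain and the second branchial arch, was the gene that fell. It lay at log2 3.32, 3.86 and 3.62 on knockout replicates 1, 2 and 3, against 4.31, 4.46 and 4.38 on wild-type replicates 1, 2 and 3. The groups did not overlap, and all 3 knockout arrays lay under the filter level while all 3 wild-type arrays lay just above it. Hoxa2 was thus tested only because it was high in wild-type, and a gene that passes in this way had to differ. Groups did not overlap in 5 of the 21 tested Hox genes, 4 lower and 1 higher, and in 23.7% of all tested genes, 11.4% lower and 12.3% higher. The count among Hox genes is thus near the background, and it includes Hoxa2, whose groups could not overlap given how it passed the filter. The fitted log2 difference of Hoxa2 was -0.78 ± 0.19 (SE, 3 arrays each, limma adjusted p = 0.0376). With values under the filter level set to that level, Hoxa2 was 1.30-fold lower in knockout, in a direction that the filter had fixed. Without knockout replicate 1 the difference was -0.64 and did not pass (limma adjusted p = 0.101). The call also ended without any one of 4 other arrays, and of the 6 left out in turn held only without knockout replicate 2. It ended with median centring, with quantile normalization and with values under log2 4 set to that floor, where the difference was -0.38 (0.121), and over all 18 alternatives the limma adjusted p ran from 0.0201 to 0.13.

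The other tested anterior genes, Hoxa3, Hoxb3 and Hoxd3, belong to the group that patterns the thymus, the parathyroid and the neck. Hoxa3 lay at log2 6.53, 7.10 and 6.64 in the knockout arrays and 7.06, 7.40 and 7.34 in the wild-type arrays. Knockout replicate 2 lay within the wild-type range and the difference did not pass (-0.50 ± 0.20, SE, 3 arrays each, limma adjusted p = 0.177, and -0.39 without knockout replicate 1). Hoxb3 differed by -0.072 and Hoxd3 by -0.21, with adjusted p of 0.873 and 0.584 in the limma fit. All 4 tested anterior genes thus had a negative difference, with a median of -0.36, and the sign of Hoxa2 among them had been fixed by the filter. Hoxb1, which acts in the hindbrain, stood apart among genes that were not tested. It read 4.68 to 5.72 intensity units across knockout arrays and 2.57 to 3.19 across wild-type arrays, far under the filter level of 16, without overlap. In the fit with no filter its difference of 0.79 ± 0.12 (SE, 3 arrays each) passed (limma adjusted p = 0.00312). Hoxb2 lay at 6.78 to 7.80 intensity units across knockout arrays and 7.56 to 9.37 across wild-type arrays, and Hoxd1 at 5.54 to 12.5 across knockout arrays and 6.89 to 12.7 across wild-type arrays.

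The central genes, paralog groups 4 to 8, act in the neck and trunk. Of 8 tested, 7 had a negative difference and 0 passed, with a median of -0.32. Hoxb4, known from the trunk skeleton and from blood stem cells, had the largest difference of these. It read 35.3, 46.9 and 31.7 intensity units in the knockout arrays and 65.2, 56.4 and 62.8 in the wild-type arrays. Every knockout array was below every wild-type array, and the difference of -0.71 ± 0.20 (SE, 3 arrays each, limma adjusted p = 0.0604) did not pass. It passed with array weights (0.0406), with eBayes without the trend (0.0481) and without knockout replicate 2 (0.0302), and its limma adjusted p ran from 0.0302 to 0.185 over 18 alternatives. Without knockout replicate 1 it differed by -0.67 (limma adjusted p = 0.142). The central genes Hoxa4, Hoxa7, Hoxb7 and Hoxc6 were not tested. Of these Hoxa4 did not overlap between groups, at log2 3.39, 3.80 and 3.37 in knockout and 3.88, 3.89 and 3.95 in wild-type, all under the filter level.

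Hoxb5, a gene of the lung and the neural crest of the gut and the neighbour of Hoxb4, was also lower on every knockout array. Its values were 217, 300.0 and 276 intensity units in knockout and 353, 326 and 342 in wild-type. The groups did not overlap and the difference did not pass (-0.38 ± 0.16, SE, 3 arrays each, limma adjusted p = 0.222, and -0.24 without knockout replicate 1). Hoxb5os, a long noncoding RNA annotated across Hoxb5 and Hoxb6, behaved like these genes without passing. It lay at log2 8.22, 8.78 and 8.51 in the knockout arrays and 8.98, 9.04 and 9.01 in the wild-type arrays. These groups did not overlap, with a difference of -0.51 ± 0.16 (SE, 3 arrays each, limma adjusted p = 0.104, and 0.0368 to 0.28 over 19 alternatives). It was -0.36 without knockout replicate 1. Hoxb6, the coding gene that Hoxb5os also spans, differed by -0.26 and its groups overlapped.

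In the Hoxc cluster, which is used along the trunk and limbs, Hoxc8 turned on a single array. It read 941 intensity units on knockout replicate 1, and 1956 and 1483 on the other knockout arrays, against 1794, 1931 and 1765 in wild-type. The difference of -0.39 ± 0.22 (SE, 3 arrays each, limma adjusted p = 0.356) was -0.10 without knockout replicate 1. Hoxc4 differed by -0.22 and Hoxc5 by 0.14, both with overlapping groups. The 2 tested probe sets of Hoxc5 disagreed in sign, at 0.14 for the brightest and -0.13 for the other. Both tested probe sets of Hoxa5, Hoxa9 and Hoxd8 had negative differences. Hoxa5, which acts in the lung and in the neck vertebrae, varied widely on its brightest probe set. That probe set ran from log2 3.95 to 6.11 in knockout and from log2 5.02 to 6.08 in wild-type. Its difference of -0.51 ± 0.49 (SE, 3 arrays each) became 0.12 without knockout replicate 3. The 2 Hoxa5 probe sets disagreed on that array. The brightest was at its lowest there, log2 3.95, and the other at its highest, log2 5.47. The other probe set differed by -0.33 and ran from log2 5.26 to 5.45 in wild-type. Hoxd8, among the brighter members, had 2326 to 2896 intensity units across knockout arrays and 2566 to 2981 across wild-type arrays, a difference of -0.094.

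**Figure D2:**
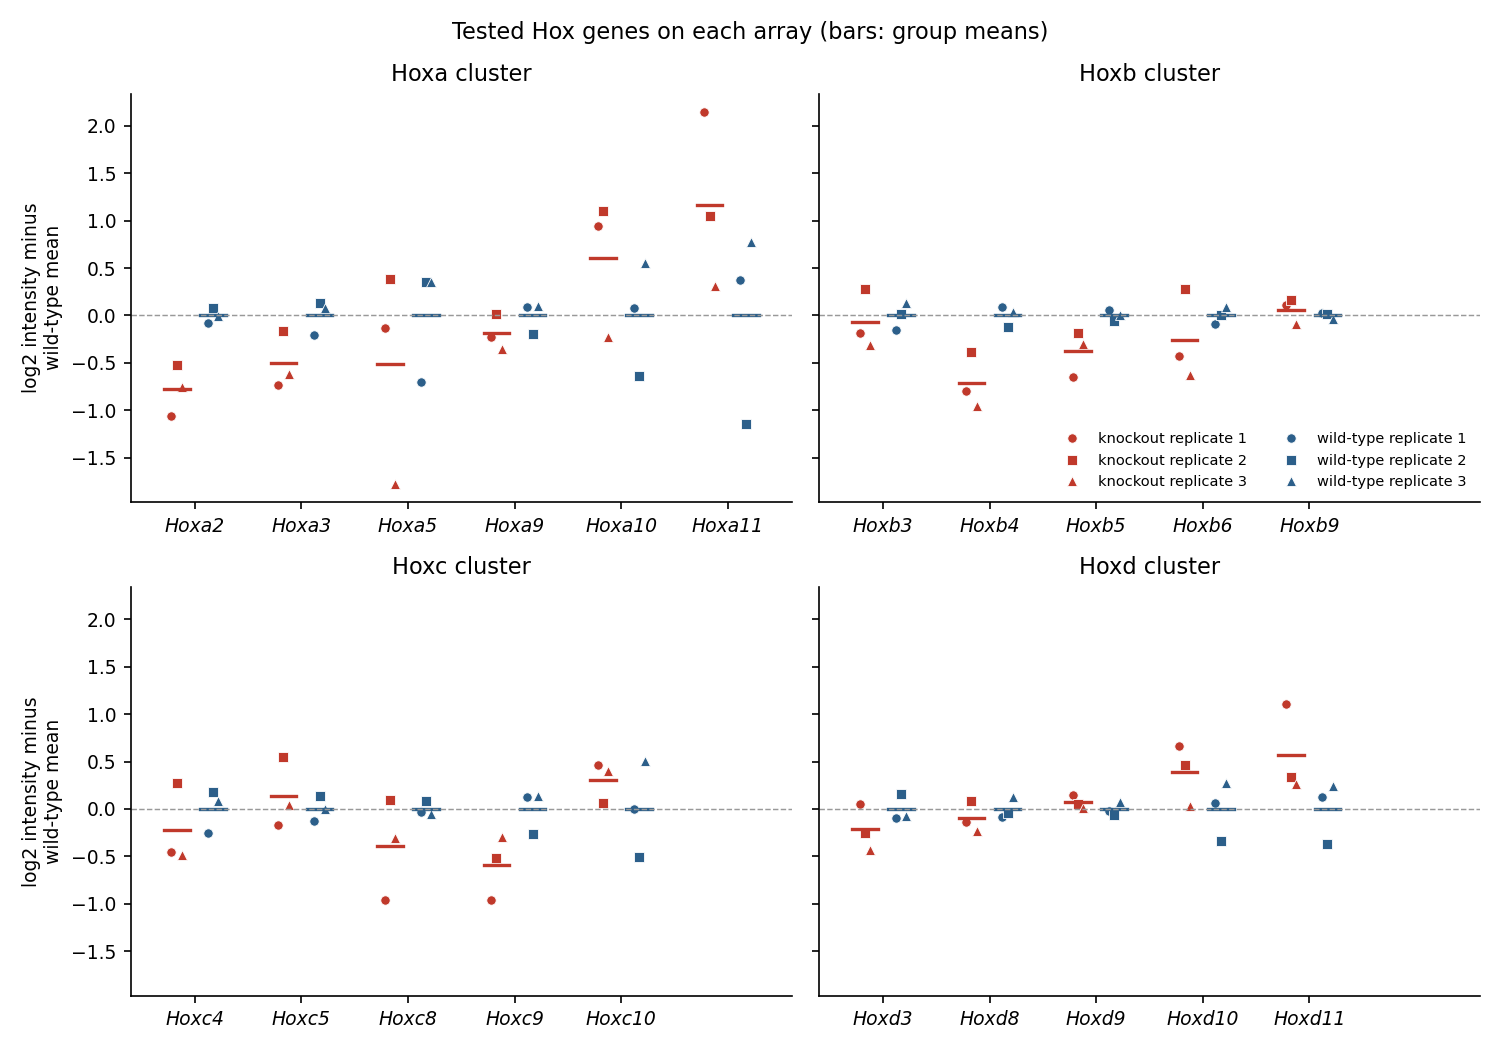
Log2 intensity of each tested Hox gene on each array minus that gene's wild-type mean (vertical axis), with knockout arrays left of wild-type arrays and bars for group means, by cluster. Hoxa2, Hoxb4, Hoxb5 and Hoxc9 show every knockout array below every wild-type array, and Hoxd11 the reverse. Groups also did not overlap in 23.7% of all tested genes.

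Paralog group 9 lies at the turn of the pattern. Hoxa9 differed by -0.19, Hoxb9 by 0.060 and Hoxd9 by 0.072, each with overlapping groups. Hoxc9, which marks the thoracic level, had a larger negative difference. Its values were 83.4, 113 and 132 intensity units in knockout and 176, 134 and 178 in wild-type. Knockout replicate 3 and wild-type replicate 2 nearly met, the groups did not overlap, and the difference of -0.59 ± 0.21 (SE, 3 arrays each, limma adjusted p = 0.141) did not pass. Without knockout replicate 1 it was -0.41. Hoxd9 was the steadiest member, with 7181, 6729 and 6544 intensity units in the knockout arrays and 6404, 6225 and 6836 in the wild-type arrays.

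The 5 tested genes of paralog groups 10 and 11 are known from the limb, the kidney and the lower reproductive tract, and their higher values in knockout did not pass. Hoxa11, needed for the uterus, had the largest difference of the set. It read 56.0, 26.2 and 15.6 intensity units in knockout and 16.3, 5.72 and 21.6 in wild-type. The groups overlapped, with 1 array of each group under the filter level, and the difference was 1.17 ± 0.52 (SE, 3 arrays each, limma adjusted p = 0.241). With those arrays set at the filter level it was 0.69, without knockout replicate 1 it was 0.68, and without wild-type replicate 2 it was 0.60. Hoxd11, which with Hoxa11 builds the forearm and the kidney, had 35.2, 20.5 and 19.5 intensity units in knockout and 17.8, 12.6 and 19.3 in wild-type. All 3 knockout arrays were higher, the closest by a narrow margin, and the difference of 0.57 ± 0.26 (SE, 3 arrays each, limma adjusted p = 0.257) was 0.30 when knockout replicate 1 was left out and 0.38 when wild-type replicate 2 was.

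Hoxa10, which also acts in the uterus, had 117, 131 and 51.8 intensity units in knockout and 64.4, 39.1 and 89.3 in wild-type. Hoxd10, a gene of the lumbar level, had 1408, 1226 and 912 in knockout and 931, 704 and 1078 in wild-type. Hoxc10 had 309, 234 and 297 in knockout and 224, 158 and 319 in wild-type. In all 3 the groups overlapped, in the order named with differences of 0.61 ± 0.38, 0.39 ± 0.19 and 0.31 ± 0.24 (SE, 3 arrays each) and limma adjusted p of 0.41, 0.3 and 0.529. Without wild-type replicate 2 they were 0.29, 0.22 and 0.057, and without knockout replicate 1 they were 0.44, 0.25 and 0.23. The genes of groups 10 and 11 moved together between arrays of the same group. Wild-type replicate 2 was the lowest wild-type array and wild-type replicate 3 the highest for 5 of 5, and knockout replicate 1 was the highest knockout array for 4 of 5. Tested genes of groups 1 to 8 shared an array order only in part. Among them wild-type replicate 1 was the lowest wild-type array for 9 of 12. The lowest knockout array was replicate 3 for 7, replicate 1 for 5 and replicate 2 for 0 of 12. Hoxa11os, the antisense RNA of the Hoxa11 locus, was not tested and had log2 5.31, 3.81 and 3.06 in knockout and 3.41, 2.30 and 4.05 in wild-type, with the arrays of each group in the same order as for Hoxa11. The labels do not say whether its probes tell the strands apart. The 5 genes of groups 12 and 13 on the array, Hoxa13, Hoxb13, Hoxc13, Hoxd12 and Hoxd13, did not exceed log2 3.25 on any array.

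**Figure D3:**
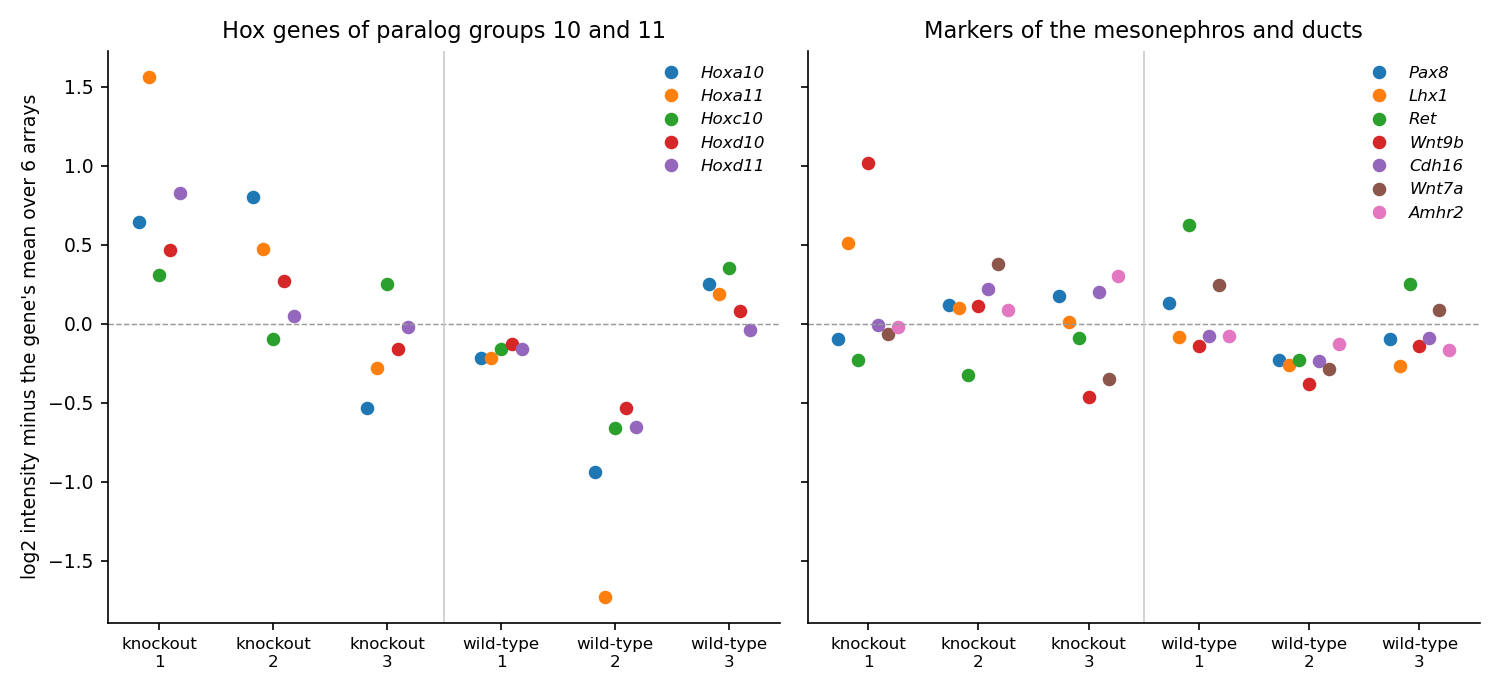
Log2 intensity minus the gene's mean over the 6 arrays (vertical axis) on each array (horizontal axis), for the 5 tested Hox genes of paralog groups 10 and 11 (left) and the 7 tested markers of the mesonephros and ducts (right). All 5 Hox genes are lowest among wild-type arrays on replicate 2, and of the duct markers on knockout replicate 1, Wnt9b and Lhx1 are the highest of all arrays while Pax8, Cdh16 and Amhr2 are the lowest of the knockout arrays. On that array Cdh16 and Amhr2 still lie above every wild-type array.

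Marker lists of other tissues that carry Hox transcripts were set beside these values. In the list of mesonephros and ducts 0 of 7 tested genes passed, and its summed intensity was 5131 to 6122 across knockout arrays and 4617 to 4940 across wild-type arrays, most of it from Amhr2, which the ovary also expresses. Wnt9b, Lhx1 and Gata3 are named from this list after their values were seen. Wnt9b had 82.7, 44.2 and 29.6 intensity units in knockout and 37.0, 31.4 and 37.1 in wild-type. Lhx1 had 88.5, 66.6 and 62.6 in knockout and 58.8, 51.9 and 51.6 in wild-type. Gata3, under the filter level on all arrays but 1, had 38.6 on knockout replicate 1 and 11.1 to 14.3 elsewhere. So knockout replicate 1, with the highest Hoxa11, Hoxd10 and Hoxd11, also had the highest Wnt9b, Lhx1 and Gata3. Hoxa10 was highest on knockout replicate 2 and Hoxc10 on wild-type replicate 3. Knockout replicate 1 was also highest for Cdx2, at 1468 intensity units, and for the summed germ cell list, at 18010. High values on that array occurred outside the duct list as well, and their source was not tested. Other markers of the duct list were not highest on that array. Pax8, Cdh16 and Amhr2, at 136, 291 and 4266 intensity units, were lowest among the knockout arrays on replicate 1, and so was the summed list, at 5131. Cdh16, Amhr2 and the sum still lay above every wild-type array there. In wild-type Cdh16 had 249 to 277 intensity units and Amhr2 3856 to 4100, while Pax8, at 123 to 158, overlapped. The part of these tissues in the result was not tested. Of the metanephros list 0 of 3 tested genes passed, with sums of 1736 to 2426 across knockout arrays and 1847 to 2002 across wild-type arrays. Its defining marker Six2, with Eya1, Foxd1 and Gdnf, failed the filter. For the nerve list, with sums of 74.3 to 124 across knockout arrays and 88.3 to 108 across wild-type arrays, Sox10, Th, Dbh and Tubb3 failed the filter and 0 of 1 tested genes passed.

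Beside the negative differences of groups 1 to 8, the stroma list, with 10 of 11 genes negative and 0 past the threshold, had sums of 39050 to 42420 across knockout arrays and 45280 to 49980 across wild-type arrays. The endothelium list, with Pecam1 and Cdh5 under the filter, had 4 of 5 tested genes negative, 2 past the threshold as lower and 0 as higher. Its sums were 1306 to 1514 across knockout arrays and 1941 to 2244 across wild-type arrays. Both lists separated the groups in the same direction as Hoxb4 and Hoxb5. The pregranulosa, surface epithelium and duct sums also separated the groups, in the other direction. The part of any of these lists in the result was not tested. For macrophages, with 7 of 7 genes negative and 2 past the threshold, the sums were 2101 to 3704 across knockout arrays and 3417 to 4403 across wild-type arrays. Over all tested genes 46.6% were negative, 2.27% passed as lower and 1.28% as higher. The germ cell list, with 0 of 7 past the threshold, had 12730 to 18010 across knockout arrays and 11810 to 13920 across wild-type arrays, and the pregranulosa list, with 0 of 7, had 7001 to 7702 across knockout arrays and 6600 to 6937 across wild-type arrays. The surface epithelium list, with 0 of 7 tested genes past the threshold, had 11170 to 12950 across knockout arrays and 10510 to 11080 across wild-type arrays. For erythroid genes, with 3 of 3 tested genes negative and 1 past the threshold, the sums were 7103 to 8556 across knockout arrays and 8243 to 8952 across wild-type arrays. For Sertoli and testis genes, with 0 of 3 tested past the threshold, they were 2826 to 3217 across knockout arrays and 2781 to 3049 across wild-type arrays.

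The sequences upstream of the members that did not overlap between groups show what lies at their starts. RefSeq start sites were in the table for 19 of the 33 genes and for 3 of these 5, Hoxa2, Hoxb4 and Hoxd11. The 250 bases before each start, on build GRCm38.p6, are given from 5′ to 3′ on the gene's strand, with capitals for a match to TGATNNAT, the composite site of Pbx and Hox proteins, on either strand. The Hoxa2 window is chr6:52164832-52165081 on the minus strand, the Hoxb4 window chr11:96318017-96318266, and those of the 2 annotated Hoxd11 starts chr2:74679308-74679557 and chr2:74682073-74682322, all on the plus strand.
Hoxa2: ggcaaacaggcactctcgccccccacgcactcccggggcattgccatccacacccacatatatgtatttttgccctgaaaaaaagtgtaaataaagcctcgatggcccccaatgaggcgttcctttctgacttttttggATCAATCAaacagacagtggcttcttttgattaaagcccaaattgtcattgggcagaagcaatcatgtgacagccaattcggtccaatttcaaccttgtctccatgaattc
Hoxb4: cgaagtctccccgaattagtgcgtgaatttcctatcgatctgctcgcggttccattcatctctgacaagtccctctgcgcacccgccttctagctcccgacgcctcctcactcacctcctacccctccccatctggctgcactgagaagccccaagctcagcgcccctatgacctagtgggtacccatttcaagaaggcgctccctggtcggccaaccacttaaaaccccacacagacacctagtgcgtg
Hoxd11, the first start: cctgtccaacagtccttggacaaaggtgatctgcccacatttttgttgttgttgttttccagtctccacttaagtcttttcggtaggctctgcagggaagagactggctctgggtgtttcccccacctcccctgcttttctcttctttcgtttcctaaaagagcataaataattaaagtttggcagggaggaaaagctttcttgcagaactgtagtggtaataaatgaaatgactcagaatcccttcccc
Hoxd11, the second start: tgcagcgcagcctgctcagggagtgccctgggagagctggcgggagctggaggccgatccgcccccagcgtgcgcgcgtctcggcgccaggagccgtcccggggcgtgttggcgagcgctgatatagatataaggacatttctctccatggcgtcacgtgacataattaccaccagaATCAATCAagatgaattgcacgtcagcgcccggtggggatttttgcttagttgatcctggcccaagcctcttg
The Pbx-Hox letters occurred at Hoxa2, which was lower in knockout, and before the second start of Hoxd11, which was higher on all 3 knockout arrays without passing, in the same 8 bases. They were present in 3 of 21 windows of Hox members, those of Hoxa2, Hoxb1 and Hoxd11, and in 7.68% of all 32851 windows of this length. ACANTGT, the core of the element bound by DM domain proteins such as Dmrt1, was in 0 of the 21 windows and in 6.47% of all. CAATAAA, a site of the Cdx type, was in 0 of the 21 and in 4.2% of all. No other letters of the Cdx type were searched for. The base composition of the windows differed, with 46.4% G and C before Hoxa2, 58.0% before Hoxb4, and 44.8% and 60.4% before the Hoxd11 starts. The medians were 59.2% for the windows of Hox members and 52.4% for all windows.

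Regulators of Hox clusters were read from 2 lists, beside shares of 1.28% higher and 2.27% lower over all tested genes. Of 8 tested signals and factors upstream of Hox genes 1 rose, Cdx2, the caudal-type factor of the hindgut and tail bud, and 0 fell. Cdx2 lay at log2 10.52, 8.16 and 6.82 in the knockout arrays and 4.29, 5.27 and 5.02 in the wild-type arrays. All knockout arrays were above all wild-type arrays, with replicate 1 far above the others, and the difference was 3.64 ± 0.72 (SE, 3 arrays each, limma adjusted p = 0.0139). Without knockout replicate 1 it was 2.63 (0.00623), and over 19 alternatives the limma adjusted p ran from 0.00299 to 0.0832. The call ended without wild-type replicate 1 (0.0713), with robust eBayes (0.0832) and with both probe sets averaged (0.0647). Its other probe set stayed at log2 2.21 to 2.52 on all 6 arrays. The Cdx relatives Cdx1 and Cdx4 were under the filter level. Aldh1a1 and Aldh1a2, which make retinoic acid, differed by 0.19 ± 0.11 and 0.27 ± 0.13 (SE, 3 arrays each) without passing (limma adjusted p = 0.397 and 0.298).

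Of 22 tested Trithorax and Polycomb genes 0 rose and 2 fell, both of them H3K4 methyltransferases of the Trithorax side, with a list median of 0.12. The shares over all tested genes were 1.28% higher and 2.27% lower. Kmt2a, the MLL1 enzyme that keeps Hox genes active, had log2 7.25, 6.14 and 6.79 in knockout and 7.93, 8.30 and 7.75 in wild-type. All 3 knockout arrays were lower, with a difference of -1.27 ± 0.27 (SE, 3 arrays each, limma adjusted p = 0.0201). Its other probe set gave -0.64 ± 0.21 without passing (limma adjusted p = 0.114), and with both averaged the call ended (0.0722). The Kmt2a call also ended without wild-type replicate 1 or 2 (0.0696 and 0.0852), and it held without knockout replicate 1 (-1.53, 0.00799), over a range of 0.00799 to 0.0852 in 19 alternatives. Kmt2d, the MLL4 enzyme that acts at enhancers, had log2 11.43, 11.25 and 11.36 in knockout and 11.74, 11.79 and 11.78 in wild-type. It differed by -0.42 ± 0.09 (SE, 3 arrays each, limma adjusted p = 0.0177), and by -0.28 with median centring, where the call ended (0.0813, within a range of 0.0144 to 0.36). Averaged over its probe sets it differed by -0.17 and did not pass (0.36). The other probe set in that average lay at log2 1.45 to 1.75 on all 6 arrays, under the filter level. Kmt2d did not pass with eBayes without the trend either (0.0784). The call also ended without any one wild-type array (0.0625 to 0.1), and held without knockout replicate 1 (-0.46, 0.0289). Phc2, a Polycomb subunit, was 0.40 ± 0.12 higher in knockout and did not pass (limma adjusted p = 0.0843, and 0.118 without knockout replicate 1, where it differed by 0.45).

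**Figure D4:**
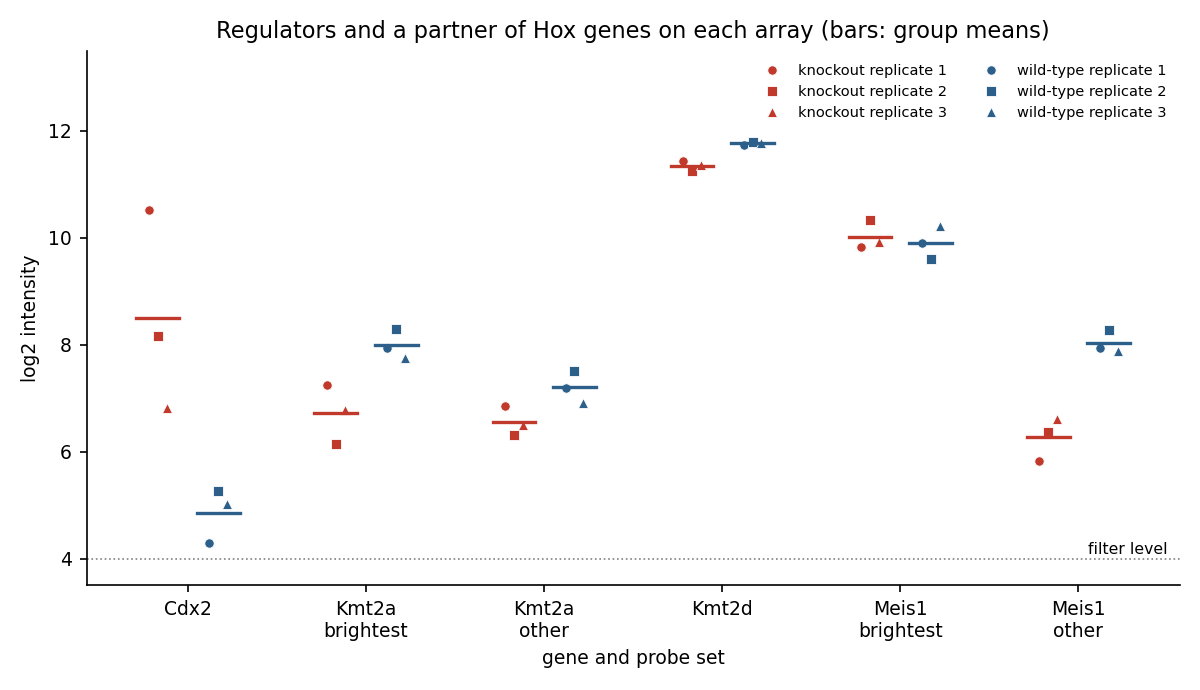
Log2 intensity (vertical axis) of the brightest probe set of Cdx2, Kmt2a, Kmt2d and Meis1, and of the other tested probe set of Kmt2a and Meis1 (horizontal axis), with knockout arrays left of wild-type arrays, bars for group means and a dotted line at the filter level. The brightest Meis1 probe set overlaps between the groups, while its other tested probe set is lower on every knockout array.

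Among DNA-binding partners of Hox proteins, the TALE homeodomain genes, 0 of 9 tested genes passed in either direction and the median was -0.039. The smallest p-values were those of Pbx2, Pknox1 and Pbx3, with differences of -0.17, -0.53 and -0.11 and adjusted p of 0.406, 0.395 and 0.541 in the limma fit. Meis1, a partner of posterior Hox proteins, is named here after its values were seen, because its probe sets disagreed. Its brightest probe set differed by 0.11 ± 0.18 (SE, 3 arrays each, limma adjusted p = 0.787). The other tested Meis1 probe set fell, with log2 5.83, 6.38 and 6.61 in knockout and 7.94, 8.27 and 7.88 in wild-type, a difference of -1.76 ± 0.22 (limma adjusted p = 0.00119). The parts of the transcript that these probe sets match are not known here.

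Of 17 tested genes that flank the clusters 1 rose and 0 fell, with a median of -0.025. For this list and those below, 1.28% of all tested genes rose and 2.27% fell. Hibadh, a mitochondrial enzyme gene beyond the Hoxa13 end of the Hoxa cluster, had log2 10.35, 10.38 and 10.37 in knockout and 9.97, 9.94 and 9.98 in wild-type. The difference of 0.41 ± 0.10 (SE, 3 arrays each, limma adjusted p = 0.0446) did not pass without any one array (0.0577 to 0.182), while its size stayed between 0.39 and 0.41. It also did not pass with the stricter filter (0.0546) or with eBayes without the trend (0.0732). Mtx2, a mitochondrial import gene beside the Hoxd cluster, differed by 0.53 ± 0.17 (limma adjusted p = 0.103) with all knockout arrays higher, and Copz1, near the Hoxc cluster, by 0.31 ± 0.11 (0.132). They differed by 0.41 and 0.38 without knockout replicate 1. Of 4 tested homeobox genes outside the clusters 1 rose, Msx1, with 0.80 ± 0.18 (limma adjusted p = 0.0247, and 0.0739 without knockout replicate 1). Its call held without 2 of the 6 arrays left out in turn, over a range of 0.0215 to 0.113. Meox1 and Meox2 differed by 0.18 and -0.22. Of the noncoding transcripts 2 were tested and 0 passed, Hoxb5os, described above, and Hoxd3os1, with -0.19 ± 0.28 (limma adjusted p = 0.762). Of the probe sets shared between symbols, that of Hoxd4 and Hoxd3 that was tested differed by -0.048 ± 0.19, and that of Hoxb8 and Hoxb7 lay at log2 3.56 to 3.79 across knockout arrays and 3.54 to 3.76 across wild-type arrays.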

How the data were processed

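Total RNA of ovaries was biotin-labelled and hybridised to Affymetrix arrays, per the labels' protocols. The deposited values are intensities on a linear scale that the authors made with GCRMA (version not given in the sources used here), per the submitters' processing notes. No detection calls come with them, and precision is limited by the number of arrays.

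The intensities were taken to log2, and 64 control probe sets of 45101 were left out. Symbols are those of the platform annotation after a lookup of its gene identifiers in a RefSeq table (assembly GRCm38.p6), which held 34741 of 34945 single-gene probe sets. A further 932 probe sets named several genes. Knockout was set against wild-type with limma 3.58.1 under R 4.3.3 (lmFit, eBayes with trend, 2-sided) over 22040 probe sets, 11897 genes through their brightest. Python 3.11.15 searched the promoter windows. The fit was tested on simulated arrays. No pair of arrays held identical values (0 pairs). Named in full were members past the threshold or without overlap, and up to 3 genes of each other list by smallest p. The members and lists were chosen with earlier results of these data known. Alternatives covered the filter, the variance model, the scaling, the probe set rule, the replicate number and each array left out.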

Additional observations from a re-analysis of the deposited data

How the results depend on the processing

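With 3 arrays a group and intensities without detection calls, values under log2 4 cannot be told from background, which limits Hoxa2, Hoxa5, Hoxa11 and Hoxd11. Of 393 values of the tested Hox genes under the alternatives, 374 kept their direction and side of the threshold, 9 lost the call, all of Hoxa2, 4 gained it, all of Hoxb4, and 6 turned their sign; the causes were not tested.

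The number of Hox genes past the threshold, 0 higher and 1 lower, was 1 higher with no filter, where the gene is Hoxb1. The lower count was 0 with the stricter filter, which leaves out Hoxa2, and 0 with quantile normalization, with median centring and with the floor at log2 4. It was 2 with eBayes without the trend, with array weights and with a threshold of 0.1. Without single arrays it ran from 0 to 2, and the higher count stayed at 0. Of the calls over all genes, 152 were higher and 270 lower. Median centring, which moves the median difference of all genes by 0.14, gave 501 and 126. No filter gave 380 higher, array weights 235 higher, averaged probe sets 89 and 173, a threshold of 0.1 gave 331 and 507, and single arrays left out gave 57 to 228 and 100 to 327, with 87 and 168 without knockout replicate 1, 61 and 100, 57 and 100, and 62 and 110 without wild-type replicates 1, 2 and 3. The median over tested Hox genes, -0.19, ran from -0.25 to -0.026 without single arrays, the last without knockout replicate 3.

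The replicate block gave 0 Hox genes lower and 83 and 137 genes over all, with Hoxa2 at an adjusted p of 0.0703 in the limma fit and a range of 0.0201 to 0.13 over its alternatives. Under the block Kmt2d was at 0.0882 and Hibadh at 0.185, and neither passed. Samples of the same number deviated from their group means with correlations of -0.165, -0.247 and -0.168, so the numbers were not taken as pairs.

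Signs turned as follows. Hoxb3 was 0.065 and Hoxd8 0.043 with median centring, where 9 of 12 genes of groups 1 to 8 stayed negative, and Pbx3 was 0.023. Hoxc5 was -0.090 with averaged probe sets, and Pbx2 was 0.21 after dropping probe sets able to match several transcripts. Without single arrays Hoxa5 ran from -0.95 to 0.12, Hoxb3 from -0.25 to 0.046, Hoxc5 from -0.065 to 0.29 and Hoxd3os1 from -0.35 to 0.12. All 5 genes of groups 10 and 11 stayed positive under every alternative that tested them.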
